A study of Mus musculus with 2 samples.

Results

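The data describe the RNA of the second polar body (PB2), the small cell that the egg sheds after fertilization, and of the zygote it was taken from. Both came from untreated mouse embryos, of strain C57BL/6 by the labels and C57BL/6N by default in the methods, that were collected from the oviduct, cultured in KSOM medium and separated at the late 1-cell stage by removing the zona pellucida and pipetting in trypsin. Polar bodies and zygotes were pooled, and each kind gave 1 library of amplified full-length cDNA, so there is no replicate, no spread between samples is known, no test was run, and every difference below describes these 2 libraries. Solute carrier genes were taken by name, as the rows of the deposited table whose symbol is Slc or Slco followed by a number, which gave 212 of 11262 genes.

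Solute carriers are membrane proteins that move small molecules such as ions, amino acids, sugars and vitamins down or against a gradient, often by coupling one solute to another. Most sit in the plasma membrane, others in the membranes of the Golgi, the lysosome or the mitochondrion, where the Slc25 family forms the main group. In the egg and early embryo they are known for glycine and betaine uptake that sets cell volume, for pyruvate and lactate uptake that feeds the mitochondria, for control of intracellular pH, and for the zinc that meiosis requires.

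The unit of the table is TPM, a length-corrected share of the transcripts of one library, so levels can be compared between genes and between libraries only as proportions. A carrier with a higher TPM in PB2 therefore took a larger share of the RNA there, and this does not tell whether PB2 held more of its molecules. Nor can fewer contributing cells and less RNA per cell be told apart in a pool. TPM keeps no record of read numbers, so depth is unknown and no counting interval is given. Values were rounded to 1 decimal, which alone makes ratios of low genes wide. The log2 ratio below is log2((PB2 TPM + 1)/(zygote TPM + 1)), and the pseudocount of 1 understates the difference of low genes. A gene was compared when it had at least 1 TPM in either library, and was counted as higher in one library when it was at least 2-fold apart on that scale. Where 2 TPM values follow each other below with no library named, the zygote comes first. An origin from the egg was looked at with 10 oocyte transcripts, all of which had at least 90.9 TPM in both libraries. Because the egg sheds PB2, such transcripts can be in both and cannot tell which library is which. Of 14 markers of cumulus and granulosa cells, the cells around the egg, 4 were in the table. They summed to 76.4 TPM in PB2 against 74.7 TPM in the zygote, nearly all of it from Cyp19a1, which had 70.9 TPM in PB2 against 72.2 TPM in the zygote. The zygote listed Cyp11a1 at 0, and PB2 had 0.8 TPM of it. The part of such cells in the results was not tested.

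Solute carrier transcripts took a larger share of the RNA in PB2 than in the zygote. Together they made up 6268 TPM in PB2 against 3838 TPM in the zygote, or 0.698% and 0.414% of the table's total. With 1 TPM as the limit, 184 carriers were expressed in PB2, 179 in the zygote and 168 in both. That is 86.8% in PB2 and 84.4% in the zygote, against 91.1% and 88.2% of all genes. Most were of modest abundance, and the median carrier stood at 6.2 TPM in PB2 but 4.1 TPM in the zygote, where the medians over all genes were 11.1 and 8.7 TPM. At least 10 TPM was reached by 87 carriers in PB2 and by 58 in the zygote, and 100 TPM by 14 and 10. Over all 11262 genes, 5873 in PB2 and 5359 in the zygote reached 10 TPM, and 1419 and 1287 reached 100 TPM. The 10 most abundant carriers of each library held 47.9% of all carrier TPM in PB2 and 49.9% in the zygote, and 8 genes were in both sets of 10.

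Out of 195 carriers compared, 54 exceeded the zygote by 2-fold or more in PB2, which is 27.7% against a background of 18.9% of all 10645 genes compared. In the other direction 8 carriers, 4.10%, reached 2-fold towards the zygote, against a background of 8.09%. The remaining 133 were less than 2-fold apart. The median log2 ratio of the carriers was 0.54, with quartiles of 0.07 and 1.10, and the median of all genes compared was 0.21. By sign alone, 149 carriers had the higher TPM in PB2, 45 in the zygote and 1 the same in both. The share towards PB2 was thus 76.4%, against 59.2% of all genes compared. The 17 carriers that were under 1 TPM in both libraries, among them the folate carrier Slc19a1 with 0.7 TPM in PB2 against 0.5 TPM in the zygote, were not compared.

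**Figure D1:**
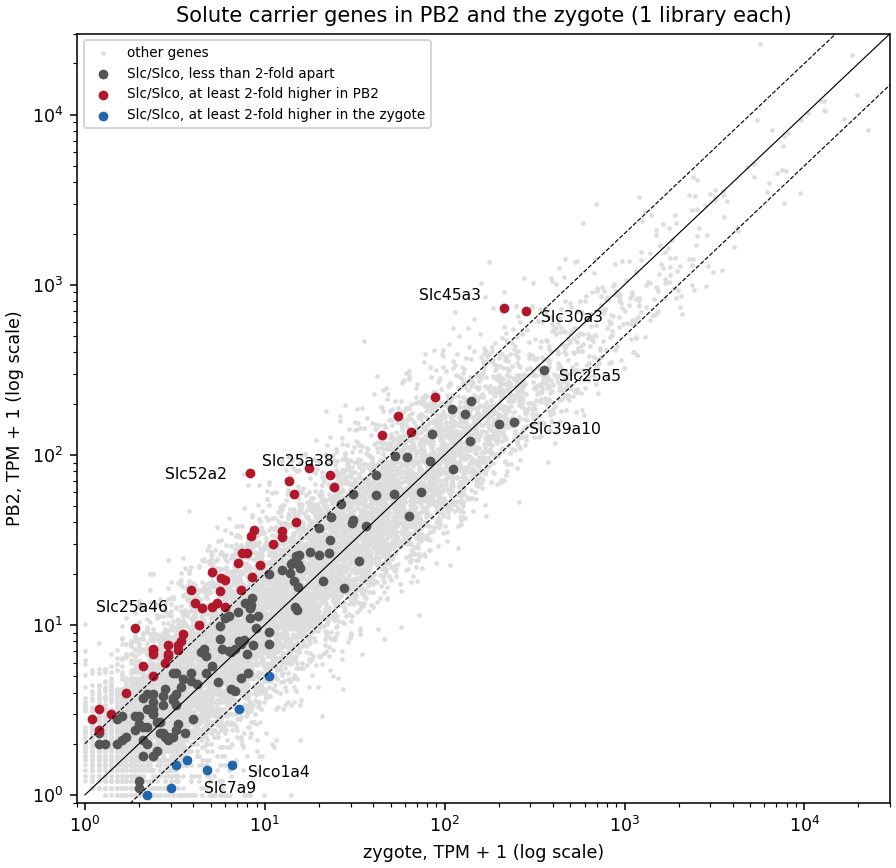
TPM + 1 in the zygote (x, log scale) against TPM + 1 in PB2 (y, log scale) for the carriers compared and for all other genes in grey; the solid line marks equal values and the dashed lines 2-fold on the scale with the pseudocount. More carriers lie above the upper dashed line (54) than below the lower one (8), and Slc52a2 lies farthest above it.

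By abundance, the share towards PB2 lay farthest from the background in the upper range. Among 46 carriers with a mean of at least 20 TPM over both libraries, 16 reached 2-fold towards PB2, 34.8%, against 17.3% of all genes in that range, and 0 reached it towards the zygote. Among 61 carriers with a mean from 5 to 20 TPM, 20 reached it, 32.8% against 21.7% of all genes. Among 88 carriers under 5 TPM the share was 20.5%, against 18.1% of all genes. Most carriers higher in the zygote were low, and 7 of the 8 had a mean under 5 TPM.

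**Figure D2:**
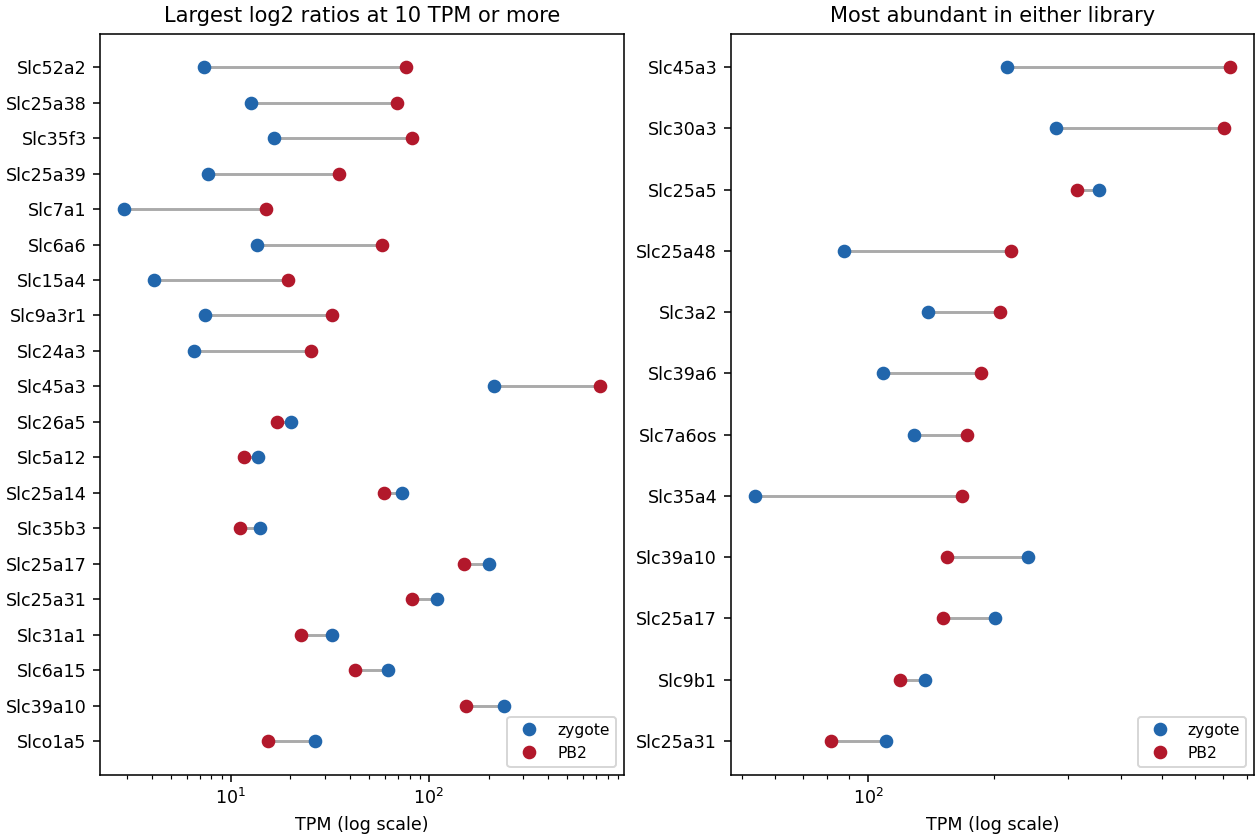
TPM in the zygote (blue) and PB2 (red), 1 library each, on a log axis, for the carriers with the largest log2 ratios in each direction among those that reached 10 TPM in one library (left) and for those most abundant in either library (right). The gaps towards PB2 on the left, up to 7.3 against 76.9 TPM for Slc52a2, are wider than those towards the zygote, the widest of which is 26.5 against 15.4 TPM for Slco1a5. All carriers in the left panel reached 10 TPM in PB2, and some of them only there.

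For carriers that reached 10 TPM in one library, the largest log2 ratio towards PB2 was that of Slc52a2 (ENSMUSG00000022560), a riboflavin transporter on the plus strand of chromosome 15 of GRCm38, from 76538832 to 76544608. It measured 7.3 TPM in the zygote against 76.9 TPM in PB2, a ratio of 10.5 and a log2 ratio of 3.23. Next was Slc25a38, which brings glycine into mitochondria for heme synthesis, with 12.6 TPM in the zygote against 68.7 TPM in PB2 and a log2 ratio of 2.36. Slc35f3 followed with 16.6 and 82.1 TPM. Slc25a39, needed for the import of glutathione into mitochondria, had 7.7 and 35.1 TPM. These were followed by Slc7a1, the uptake route for arginine and lysine, and Slc6a6, the taurine transporter, with log2 ratios of 2.05 and 2.02. The rest of the 10 were Slc15a4, a lysosomal histidine and peptide carrier, Slc9a3r1, Slc24a3, a calcium exchanger, and Slc45a3, with log2 ratios from 2.01 to 1.76. All 10 were more than 3-fold higher in PB2 as deposited, from 3.41-fold for Slc45a3.

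Towards the zygote the differences of carriers at this level were small, and none of them reached 2-fold. All 87 carriers that reached 10 TPM did so in PB2, and 58 did so in the zygote. Some therefore passed this limit only through the library where they were higher, so the directions are not compared on equal terms here. The largest was that of Slco1a5, an organic anion transporter, with 26.5 TPM in the zygote against 15.4 TPM in PB2, which gave a log2 ratio of -0.75. Slc39a10 measured 240.5 TPM in the zygote against 153.9 TPM in PB2, and Slc6a15, a carrier of neutral amino acids, had 62.4 and 42.6 TPM. The others of these 10 were Slc31a1, Slc25a31, Slc25a17, Slc35b3, Slc25a14, Slc5a12 and Slc26a5, with log2 ratios between -0.49 and -0.21.

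The most abundant carriers differed in order between the libraries. In PB2 Slc45a3 led with 728.8 TPM, followed by Slc30a3 with 702.1 TPM and Slc25a5 with 315.0 TPM. In the zygote Slc25a5 led with 355.3 TPM, followed by Slc30a3 with 280.6 TPM, Slc39a10 with 240.5 TPM and Slc45a3 with 214.0 TPM. Slc45a3, also called prostein and placed with the sugar carriers, ranked 171 among all genes of the table in PB2 and 621 in the zygote. Slc3a2, the heavy chain that brings several Slc7 amino acid transporters to the membrane, measured 138.9 TPM in the zygote against 205.6 TPM in PB2.

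Carriers were then grouped by substrate, as read from the words of the deposited gene description, and from the family number for 75 genes whose description names no substrate. Class sizes are small, and medians are descriptions of the genes listed. The background for the class counts is 18.9% of all genes compared towards PB2 and 8.09% towards the zygote. Over all carriers the shares were 27.7% and 4.10%. With so few genes, the share of a class is not read as a result about that class. Where the description is broad, a gene can sit in a class that does not match its best known substrate. This is said below for some genes only. Exons of 30 carriers overlap those of another protein-coding gene, among them Slc6a9, Slc25a35, Slc35a4, Slc34a1, Slc4a2, Slc7a7 and Slc1a1, and the values of these are uncertain if reads were counted without strand.

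**Figure D3:**
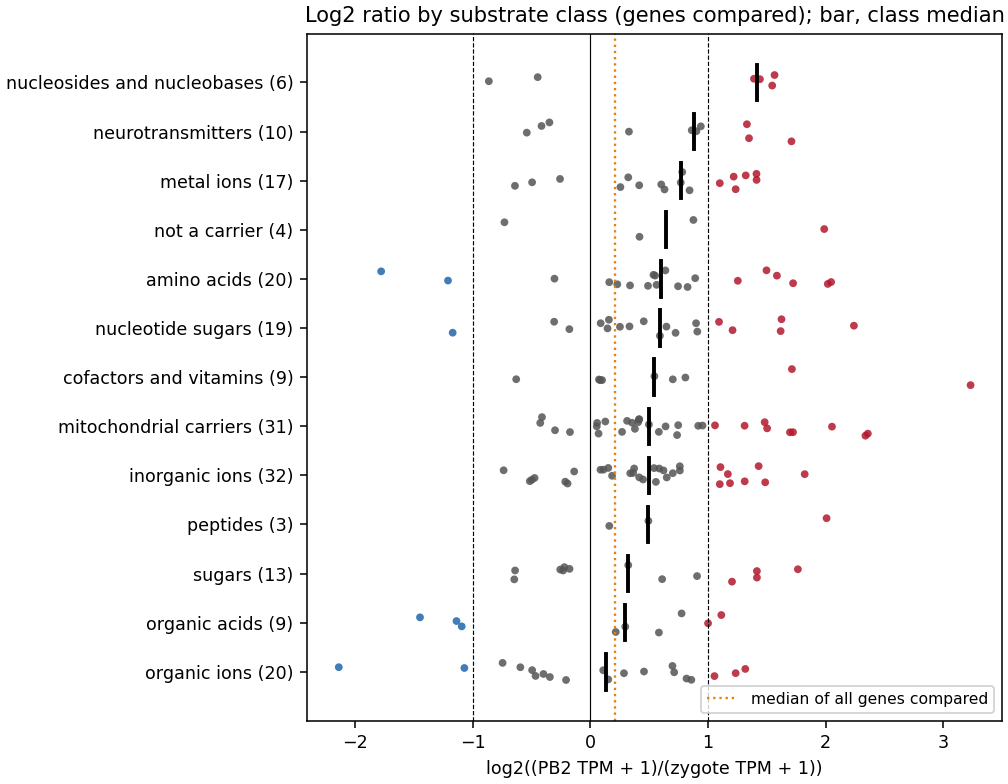
Log2 ratio of each carrier compared (x) by substrate class (y, with the number of genes compared; classes of fewer than 3 genes left out); the vertical bar is the class median, the dotted line the median of all genes, and the dashed lines 2-fold in either direction. The genes 2-fold higher in the zygote (blue) lie in 4 classes, the amino acids, nucleotide sugars, organic acids and organic ions.

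Amino acid carriers had a median log2 ratio of 0.60 over 20 genes, of which 6 were 2-fold or more towards PB2 and 2 towards the zygote. On the PB2 side, Slc7a1 measured 2.9 TPM in the zygote against 15.1 TPM in PB2. Slc6a6 had 13.5 and 57.7 TPM. Slc6a9, the glycine transporter GLYT1 that egg and embryo use for volume control, measured 7.0 TPM in the zygote against 25.4 TPM in PB2. Slc7a5, the LAT1 carrier of large neutral amino acids, had 4.6 and 14.8 TPM, while its partner Slc3a2 was less than 2-fold apart. The others were Slc38a7, a lysosomal glutamine carrier, with 8.4 and 21.4 TPM, and Slc38a8. The 2 genes higher in the zygote are known from epithelia, Slc7a9 with 3.8 TPM in the zygote against 0.4 TPM in PB2, and Slc7a7 with 2.7 and 0.6 TPM. Rounding alone allows a zygote to PB2 ratio between 8.33 and 11.0 for Slc7a9. Slc7a6, Slc6a7 and Slc1a1, known from oocytes and embryos, had log2 ratios of 0.75, 0.49 and 0.54.

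The class read as neurotransmitter carriers holds further members that move amino acids or related compounds. Its median was 0.88 over 10 genes, with 3 (30.0%) at least 2-fold higher in PB2. Slc6a20a and Slc6a20b, close paralogs of which mouse Slc6a20 carries proline and betaine, had 2.5 and 5.0 TPM in the zygote and 7.8 and 9.9 TPM in PB2, log2 ratios of 1.33 and 0.86. The exons of Slc6a20b share 1800 bases with Sacm1l on the opposite strand, so its value is uncertain where reads were counted without strand. The others at least 2-fold higher were the serotonin transporter Slc6a4, with 3.1 and 12.4 TPM, and Slc6a14, with 0.1 and 1.8 TPM.

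Mitochondrial carriers of the Slc25 family were the second class by size after the inorganic ion carriers, with 33 genes, of which 31 were compared. Their median log2 ratio was 0.50, 9 (29.0%) were 2-fold or more towards PB2 and 0 towards the zygote. Of the ADP/ATP translocases, which exchange ATP made in mitochondria for ADP, Slc25a5 measured 355.3 TPM in the zygote against 315.0 TPM in PB2. Slc25a31, the germ cell form, had 110.1 and 81.7 TPM, while Slc25a4, the form of heart and muscle, had 25.5 and 50.3 TPM. The translocases thus lay on both sides, and none of the 3 was 2-fold apart. Slc25a3, the phosphate carrier, had 40.3 and 57.3 TPM. Most carriers of this family that are at least 2-fold higher in PB2 have other substrates. They were Slc25a38 and Slc25a39 (above), the citrate carrier Slc25a1 with 6.1 and 22.0 TPM, the branched-chain amino acid carrier Slc25a44 with 11.5 and 34.4 TPM, Slc25a35, the calcium-regulated ATP and phosphate carrier Slc25a23, the glutamate carrier Slc25a22, Slc25a48 with 87.5 and 218.5 TPM, and Slc25a46. Slc25a46, which acts in the outer membrane on mitochondrial shape, measured 0.9 TPM in the zygote against 8.6 TPM in PB2, and its exons share 383 bases with a gene on the opposite strand. Slc25a17, which works in peroxisomes, had 200.7 and 150.7 TPM.

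**Figure D4:**
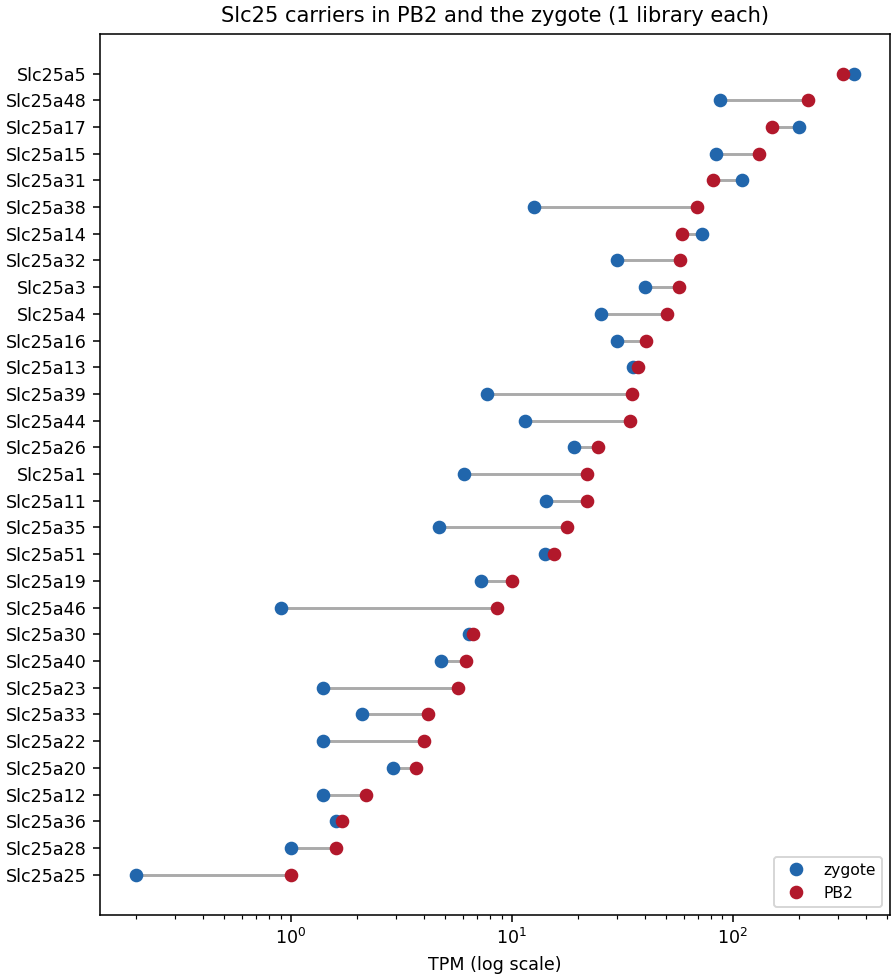
TPM of the 31 Slc25 carriers compared in the zygote (blue) and PB2 (red), 1 library each, on a log axis and ordered by PB2. In 27 of them (87.1%, against 59.2% of all genes compared) the red point lies to the right. The 4 with a higher zygote value are Slc25a31, Slc25a17, Slc25a14 and Slc25a5.

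Metal ion carriers, most of them zinc transporters, had a median of 0.77 over 17 genes. Of these, 6 (35.3%) were 2-fold or more towards PB2 and 0 towards the zygote. Slc30 proteins move zinc out of the cytosol into vesicles or out of the cell, and Slc39 proteins move it in. Slc30a3 (ENSMUSG00000029151, GRCm38 chromosome 5, minus strand, 31086106 to 31108237), which loads zinc into synaptic vesicles of neurons, measured 280.6 TPM in the zygote against 702.1 TPM in PB2, which gave a log2 ratio of 1.32. Slc30a5, which serves zinc enzymes of the secretory pathway, had 11.4 and 32.0 TPM, and Slc30a9 had 2.4 and 7.0 TPM. The exporter of the plasma membrane, Slc30a1, measured 4.5 TPM in the zygote against 3.6 TPM in PB2. The importers Slc39a6 and Slc39a10, both known for zinc uptake by the maturing oocyte, lay on either side of 0, Slc39a6 with 108.4 and 185.3 TPM and Slc39a10 with 240.5 and 153.9 TPM. Of the 4 Slc39 genes compared, 0 were 2-fold apart. Among copper carriers, the importer Slc31a1 measured 32.4 TPM in the zygote against 22.7 TPM in PB2, and its relative Slc31a2 had 23.4 and 63.9 TPM. The magnesium carriers Slc41a1 and Slc41a3 completed the group, with log2 ratios of 1.22 and 1.10.

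Inorganic ion carriers numbered 38, of which 32 were compared, with a median of 0.49, 8 2-fold or more towards PB2 and 0 towards the zygote. Slc24a3, which exchanges calcium against sodium and potassium, had 6.5 and 25.5 TPM. Slc26a9 had 7.5 and 18.1 TPM, the sulfate carrier Slc26a2 4.4 and 12.4 TPM, and Slc12a9 3.5 and 11.6 TPM. Slc34a1 and Slc12a5 were also among them. Slc4a2 and Slc26a1, candidates for bicarbonate and anion exchange in the embryo, were at or under 1.2 TPM in both libraries. The most abundant gene of the class, Slc9b1, measured 136.7 TPM in the zygote against 119.4 TPM in PB2.

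Nucleotide sugar carriers supply the Golgi and endoplasmic reticulum with donors for glycosylation, and are here all of family Slc35. Their median was 0.59 over 19 genes, with 5 (26.3%) 2-fold or more towards PB2 and 1 (5.26%) towards the zygote. Slc35a4 measured 53.7 TPM in the zygote against 167.6 TPM in PB2, and Slc35c2 had 5.0 and 17.4 TPM. Slc35b2, which carries the sulfate donor PAPS into the Golgi, had 5.0 and 11.8 TPM, whereas Slc35b3 of the same function had 14.1 and 11.2 TPM. Slc35d2 was at least 2-fold higher in the zygote, with 6.2 TPM there and 2.2 TPM in PB2. The CMP-sialic acid carrier Slc35a1 had 81.4 and 90.9 TPM. Slc35f3 and Slc35g2 were also higher in PB2. Of the 19 genes compared, 3 name such a substrate in their description, Slc35a1, Slc35a2 and Slc35a3, and their median was 0.16. All others of the class, including every one that was 2-fold apart, were placed here by family number alone.

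Sugar carriers had a median of 0.32 over 13 genes, and 6 had the higher TPM in the zygote. Of the 13, 4 (30.8%) were 2-fold or more towards PB2 and 0 towards the zygote. Slc2a1, the glucose transporter GLUT1, measured 18.9 TPM in the zygote against 36.3 TPM in PB2, which gave a log2 ratio of 0.91. The genes at least 2-fold higher were Slc45a3, Slc2a10 and the sugar phosphate carriers Slc37a1 and Slc37a3. Slc37a3 had 14.0 and 39.0 TPM. Slc2a12 measured 7.1 TPM in the zygote against 4.2 TPM in PB2.

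Carriers of organic acids lay on both sides. All but 1 of the 10 are of family Slc16, the monocarboxylate transporters. Of 9 compared, 2 (22.2%) were 2-fold or more towards PB2 and 3 (33.3%) towards the zygote. Slc16a1, or MCT1, which moves lactate and pyruvate, measured 16.9 TPM in the zygote against 25.8 TPM in PB2. Slc16a7, or MCT2, the form with the higher affinity for pyruvate, measured 2.0 TPM in the zygote against 0.1 TPM in PB2. Rounding alone leaves its zygote to PB2 ratio between 13.0 and 41.0. Slc16a12, a creatine carrier, had 2.2 and 0.5 TPM, and Slc16a4 had 1.2 TPM in the zygote and was listed at 0 in PB2. On the PB2 side, Slc16a13 had 6.4 and 15.0 TPM and Slc16a6 0.2 and 1.4 TPM. Slc16a6 lies exactly at 2-fold with the pseudocount, and its exons share 1052 bases with Amz2 on the opposite strand.

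Organic ion carriers, of families Slco, Slc10, Slc22 and Slc47, had a median of 0.13 over 20 genes, below that of all genes compared, with 3 2-fold or more towards PB2 and 2 towards the zygote. Slco1a4 (ENSMUSG00000030237) had the largest log2 ratio of all carriers towards the zygote with the pseudocount of 1, at 5.6 TPM there and 0.5 TPM in PB2, which gave a log2 ratio of -2.14. Slco1a4 and Slco1a5 are close relatives whose reads may be hard to separate, and Slco1a5 also had the higher value in the zygote. With a pseudocount of 0.1 the log2 ratio of Slco1a4 was -3.25, and that of Slc16a7 was larger in size at -3.39, with Slc16a4 left out because it is listed at 0 in PB2. Slco4c1 measured 9.5 TPM in the zygote against 4.0 TPM in PB2. On the PB2 side were Slco3a1, with 64.1 and 134.2 TPM, Slco4a1, with 4.1 and 11.7 TPM, and Slc22a2.

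Nucleoside and nucleobase carriers were 6 genes with a median of 1.42, and 4 of them (66.7%) were at least 2-fold higher in PB2. The equilibrative nucleoside transporters Slc29a2 and Slc29a3 had 1.1 and 1.4 TPM in the zygote and 4.7 and 6.1 TPM in PB2, and the concentrative Slc28a1 had 1.9 and 6.6 TPM. The fourth, Slc23a2, is named a nucleobase transporter in its description but is known as a vitamin C transporter, and measured 44.0 TPM in the zygote against 130.3 TPM in PB2. Slc28a3 and Slc23a3 had the higher TPM in the zygote and were less than 2-fold apart.

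Carriers of cofactors and vitamins had a median of 0.54 over 9 genes, and 2 (22.2%) were at least 2-fold higher in PB2. Beside Slc52a2 this was Slc44a2, a choline transporter, with 22.1 TPM in the zygote against 74.7 TPM in PB2, while the other 4 genes of its family had log2 ratios between -0.63 and 0.10. Slc44a3, the lowest of them, measured 5.5 TPM in the zygote against 3.2 TPM in PB2. The 3 peptide carriers were Slc15a4, with 4.1 and 19.5 TPM, Slc15a2 and Slc15a5, with 51.6 and 57.8 TPM. Single members of other classes were the fatty acid carrier Slc27a2 and the urea carrier Slc14a2, both near 1 TPM. Under their Slc names 4 genes are not carriers, and 1 of these was 2-fold apart, the scaffold protein Slc9a3r1 (NHERF1) with 7.4 TPM in the zygote against 32.3 TPM in PB2. Its relative Slc9a3r2 had 5.8 and 3.1 TPM, and Slc7a6os and Slc4a1ap had log2 ratios of 0.42 and 0.88.

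Proteins that carriers depend on were examined through 16 genes, of which 12 were in the table and all 12 were compared. Of these, 3 were 2-fold or more towards PB2 and 1 towards the zygote, and with 12 genes neither share can be set apart from the background of 18.9% and 8.09%. The beta subunits of the sodium pump, whose gradient drives many carriers, were less than 2-fold apart, Atp1b3 with 188.4 and 313.2 TPM and Atp1b1 with 17.9 and 17.3 TPM. Wnk2, of the kinases that act on Slc12 cotransporters, had 6.1 and 26.5 TPM. The chaperones of the Slc16 carriers were less than 2-fold apart, Bsg with 92.5 TPM in the zygote against 101.4 TPM in PB2 and Emb with 44.3 and 25.7 TPM. Mpc1 and Mpc2 form the mitochondrial pyruvate carrier, and both had the higher value in the zygote, Mpc1 with 22.2 against 8.1 TPM and Mpc2 with 6.4 against 3.9 TPM. Of 33 carriers listed for a known role in the oocyte or embryo, 25 were in the table, and the other 8, among them Slc2a3, Slc16a3, Slc38a3 and Slc1a5, were not analysed here.

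The log2 ratio moved with the GC content of the transcripts. Over the 195 carriers compared, the GC content of the longest coding transcript and the log2 ratio had a Spearman's rho of 0.44, and over 10606 genes with such a transcript it was also 0.44. These are descriptions across genes that share the same pair of libraries. The median GC content was 54.4% in the 54 carriers higher in PB2, 48.2% in those less than 2-fold apart and 42.2% in the 8 higher in the zygote. In the 39 carriers with at least 55% GC, 25 reached 2-fold towards PB2, 64.1%, while 43.5% of all genes of that GC content did. In the 46 under 45% GC, 6 were, 13.0%, against 4.30% of all genes. In between, the shares of carriers and of all genes were 28.3% and 24.9% from 50% to 55% GC, and 12.0% and 10.5% from 45% to 50%. With the trend of all genes on GC content subtracted, 31 carriers reached 2-fold towards PB2, including 25 of the original 54. That is 15.9%, against 9.08% of all genes with such a transcript. Towards the zygote 10 carriers reached it, including 5 of the original 8, which is 5.13% against 11.0%. The median log2 ratio of the carriers was then 0.27, against 0.01 for all genes. With the trend on transcript length subtracted instead, the counts were 35 and 11. Those are 17.9% and 5.64% of the carriers, against 12.1% and 11.7% of all genes. The part of GC content in these differences was not tested.

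**Figure D5:**
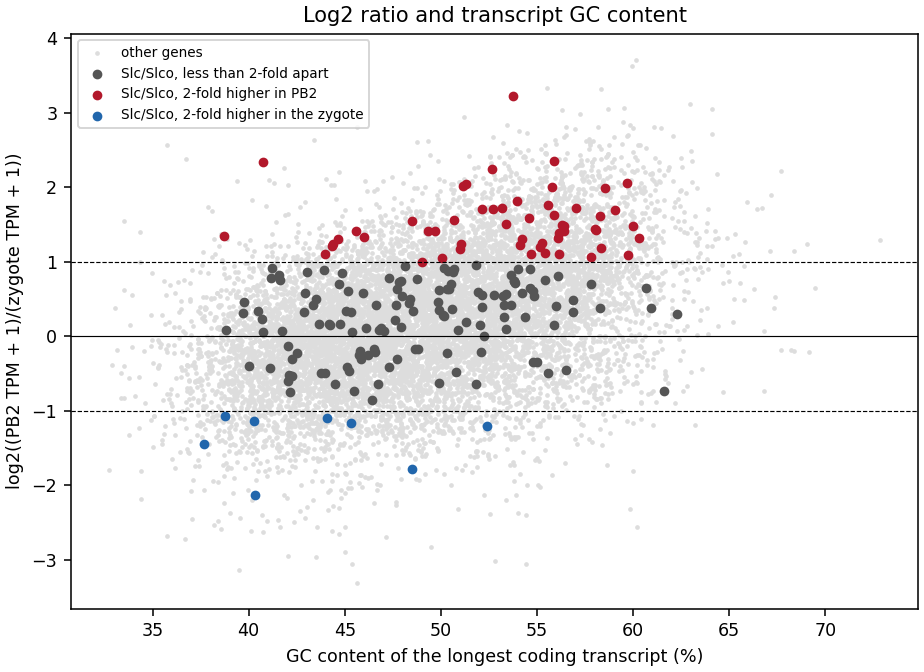
GC content of the longest coding transcript (x, in percent) against the log2 ratio (y) for carriers and, in grey, all other genes; the dashed lines mark 2-fold in either direction. Carriers higher in PB2 (red) lie mostly above 50% GC, with Slc25a46 at 40.7% an exception, and 7 of the 8 carriers higher in the zygote (blue) lie under 50%.

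Some carriers kept a large log2 ratio with the GC trend subtracted, namely Slc52a2 at 2.67, Slc25a46 at 2.63, Slc35f3 at 1.76, Slc7a1 at 1.67, Slc6a6 at 1.65 and Slc25a38 at 1.62. Others did not, and Slc30a3, whose transcript has 60.3% GC, was at 0.36 and Slc7a5 was at 0.73. Slc45a3 was at 1.05. Towards the zygote, Slco1a4 was at -1.82, Slc7a9 at -1.93 and Slc16a7 at -1.01.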

How the data were processed

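RNA of PB2 and of the zygote was measured with 1 library each. According to the methods, polyA RNA was amplified as full-length cDNA, reads were aligned with HISAT2 2.0.4 and counted per gene with HTSeq 0.6.1p1 on an Ensembl annotation. Whether counting used strand is not given in the sources used here. The methods name OryCun2.0, a rabbit assembly, and the submitters' processing notes name both it and GRCm38, while all 11262 identifiers of the table are mouse. The authors deposited TPM values, rounded to 1 decimal, whose computation is not given in the sources used here. The listed genes add up to 89.8% of the TPM total of a full library in PB2 and 92.7% in the zygote. Depth is unknown. Of the table's value columns, 0 were left unmatched.

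From these values, log2 ratios with a pseudocount of 1 were computed over genes with at least 1 TPM in either library. Substrate classes were set by words of the gene description, or by family number. GC content, length and coordinates were those of GENCODE M21 (GRCm38), matched by identifier for all 212 carriers, and trends were subtracted by loess (span 0.3). The code was tested on simulated data. The genes named were the 10 largest log2 ratios in each direction at 10 TPM or more, the 10 highest TPM in each library, genes listed at 0 in one library, genes with a known role in oocyte or embryo, and the highest and lowest log2 ratio of each class at 5 TPM or more; the other genes given within a class were chosen after their values were seen. Some genes of these lists are not reported here by name. The members, lists and substrate classes were chosen with earlier results of these data known. Alternatives were other pseudocounts, thresholds, filters and scalings, centring, and subtraction of a GC or a length trend. Python 3.11.15, numpy 2.4.6, pandas 2.3.3, statsmodels 0.14.6 and matplotlib 3.10.9 were used.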

Additional observations from a re-analysis of the deposited data

How the results depend on the processing

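No paired analysis was possible because PB2 and the zygote gave 1 library apiece, and no library could be left out. Among the carriers chosen by the naming rule, which were the only single genes recomputed with other pseudocounts and scalings, none that was 2-fold apart changed sign, nor did any alternative turn the sign of a median whose interval lay on one side of 0. For single genes this was largely fixed in advance. A pseudocount added to both libraries cannot change a sign, and scaling and centring moved these genes by less than 2-fold. Only the subtraction of a GC or length trend could have changed it. Counts had to stay within 1.5 times, a median within its 95% order-statistic interval and a single log2 ratio within 0.5. That interval is taken over genes that share the same pair of libraries. It serves as a limit only and does not measure the uncertainty of the difference between PB2 and the zygote. Of the counts and medians recomputed, 126 stayed within these limits and 21 moved, and of the single genes 388 and 33. Centring shifts every log2 ratio by 0.21 and so cannot pass the limit of 0.5 for a single gene. With a pseudocount of 0.01, Slc16a7 was at -4.19 and Slco1a4 at -3.46, so the order of low carriers towards the zygote depended on the pseudocount.

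At 5 TPM as the limit of expression, expression was counted for 118 carriers in PB2 and 98 in the zygote. The share over all genes at that limit is not given here. At 1.5-fold, the counts were 92 towards PB2 and 17 towards the zygote, which is 47.2% and 8.72% against 34.2% and 18.1% of all genes. At 4-fold they were 8 and 1, which is 4.10% and 0.51% against 2.48% and 0.70%. The single carrier towards the zygote is thus near the share of all genes. With at least 5 TPM in either library, 3 carriers were higher in the zygote, 2.40% against 8.39% of all genes. In PB2 47 were, 37.6% against 20.7%, and the carrier median was 0.75, against 0.20 for all genes. The carrier median was 0.65 with a pseudocount of 0.01, 0.33 with the median of all genes subtracted, 0.27 with the GC trend removed and 0.24 with the length trend removed. With the GC trend removed 31 carriers were higher in PB2, 15.9% against 9.08% of all genes. With the length trend removed 35 were, 17.9% against 12.1%.

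Among classes, the nucleoside median was 0.60 with the GC trend removed, which still lay within its wide interval over 6 genes. It was 1.65 and 1.68 with pseudocounts of 0.1 and 0.01. The inorganic ion median was 0.78 with 0.01 and 0.10 with the GC trend removed, where the cofactor and vitamin median was 0.058. The mitochondrial carrier median was 0.29 after centring, and the amino acid median 0.30 with the length trend removed. The medians of sugar and organic ion carriers, whose intervals spanned 0, did change sign. Sugar carriers were at -0.026 with the GC trend removed and -0.009 with the length trend removed. Organic ion carriers were at -0.08 after centring, -0.03 with the GC trend removed and -0.22 with the length trend removed. Beyond what thresholds, filters and centring do by construction, the cause was not tested. Depth is unknown, so the error of carriers under a few TPM cannot be given.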

Other observations

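Several carriers best known from other tissues were found in both libraries, and they were picked here after their values were seen. Slc9b1, a sodium/hydrogen antiporter known from sperm, measured 136.7 TPM in the zygote against 119.4 TPM in PB2. Slc26a5, or prestin, the motor protein of cochlear hair cells, had 20.1 and 17.2 TPM. Slc12a5, the potassium/chloride cotransporter of neurons, had 1.9 and 5.6 TPM, and Slc18a2, the vesicular monoamine transporter, had 13.5 and 17.2 TPM. None of these 4 was higher in the zygote by 2-fold, and Slc12a5 was at least 2-fold higher in PB2.

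Relatives with one substrate lay on opposite sides in several cases, again picked after the values were seen. The log2 ratio was 1.41 for Slc31a2 and -0.49 for Slc31a1, 0.77 for Slc39a6 and -0.64 for Slc39a10, and 1.09 for Slc35b2 and -0.31 for Slc35b3.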
